A study of Mus musculus with 20 samples.

Results

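The carboxylesterases of mouse liver are described here through 10 genes, Ces1b, Ces1c, Ces1d, Ces1e, Ces1f, Ces1g, Ces2a, Ces2c, Ces2e and Ces3a. They were taken by name from a table of read counts that holds 46078 genes. The mRNA was read from livers of 20 male mice in 6 groups. Cse encodes cystathionine γ-lyase, the enzyme that releases cysteine from cystathionine, so that mice lacking it depend on cysteine from food. Cse+/- mice, which the labels call WT, were fed the control diet (2 mice), a diet lacking cysteine (no-Cys, 4 mice) or one lacking tryptophan (no-Trp, 3 mice). Of the Cse-/- mice, labelled cse, 4 were fed no-Cys, 3 no-Trp, and 4 no-Trp together with BSO, L-buthionine sulfoximine, which blocks glutathione synthesis. All mice came from the Cse line on a mixed 129 and C57BL/6 background, were adults, and ate a restricted amount of control diet for 3 days and then, still restricted, the diet named for 2 days. The deletion is present in every cell type, not in the liver alone, and none of the groups used here is Cse-/- on the control diet. Each library is 1 liver, and individual livers are named below by their label in the count table (av08, for example).

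Carboxylesterases are serine hydrolases that cut esters, amides and thioesters. In hepatocytes most of them sit in the lumen of the endoplasmic reticulum, where they convert ester drugs and toxins and also hydrolyse triacylglycerol and cholesteryl esters, some of it for the lipid that leaves the cell in VLDL. The mouse family grew by tandem duplication, so that many genes are close copies of a neighbour. Enzymes of the Ces1 subfamily tend to prefer esters with a large acyl group, and those of the Ces2 subfamily esters with a small one. Ces1c is an exception in its place, since its product is secreted and is the main carboxylesterase of mouse plasma.

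All 10 genes lie on chromosome 8 in GRCm38, in 2 clusters of the family separated by 11198172 bases. The Ces1 genes are on the minus strand. Ces1b (chr8:93056728-93080017) is followed by Ces1c (chr8:93099015-93131283), Ces1d (chr8:93166068-93197838), Ces1e (chr8:93201218-93229619), Ces1f (chr8:93256236-93279747) and Ces1g (chr8:93302369-93337308). The others are on the plus strand, in the order Ces2a (chr8:104734003-104741634), Ces2c (chr8:104847068-104854483), Ces2e (chr8:104926260-104934672) and Ces3a (chr8:105048601-105058413). Counts cover the exons of each gene, coding and untranslated.

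Ces1b and Ces1c are the closest pair of neighbours among the Ces1 members, with coding sequences that are 91.2% identical. Their starts are similar as well, which is why both are shown. The windows are those of RefSeq on GRCm38.p6, from 250 bases before to 50 bases after the annotated start, and 7 of the 10 members had one. They are written 5′ to 3′ on the minus strand, for Ces1b at chr8:93079968-93080267 and for Ces1c at chr8:93131234-93131533. Capitals mark the longest run of identical bases in the pair, 58 bases.

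Ces1b: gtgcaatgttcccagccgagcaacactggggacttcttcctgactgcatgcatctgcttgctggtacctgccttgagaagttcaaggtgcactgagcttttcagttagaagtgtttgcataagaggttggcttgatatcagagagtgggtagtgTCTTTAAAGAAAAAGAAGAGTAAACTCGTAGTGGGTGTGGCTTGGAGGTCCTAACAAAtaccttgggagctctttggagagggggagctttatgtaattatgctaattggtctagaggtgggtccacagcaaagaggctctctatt
Ces1c: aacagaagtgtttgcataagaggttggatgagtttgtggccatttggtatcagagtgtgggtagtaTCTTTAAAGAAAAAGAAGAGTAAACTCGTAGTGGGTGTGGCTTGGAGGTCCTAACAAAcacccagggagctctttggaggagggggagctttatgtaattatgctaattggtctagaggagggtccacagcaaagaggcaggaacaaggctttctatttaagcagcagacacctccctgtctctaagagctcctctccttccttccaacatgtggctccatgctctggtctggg

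Counted from the first base of the transcript, the shared run lies at positions -96 to -39 in Ces1b and -184 to -127 in Ces1c. Of 197 bases that could be aligned between both windows, 185 (93.9%) were identical. In the livers the transcripts of this pair gave different results, described below. Ces2a and Ces2e form another pair, whose windows were 69.1% identical over 265 aligned bases. The windows of Ces2a and Ces2c were 68.7% identical over 291 bases. In Cse-/- livers without cysteine Ces2a and Ces2e were lower and Ces2c higher, and the windows of Ces2a and Ces2e are shown on the plus strand (chr8:104733753-104734052 for Ces2a and chr8:104926010-104926309 for Ces2e) with their longest shared run, 17 bases, in capitals.

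Ces2a: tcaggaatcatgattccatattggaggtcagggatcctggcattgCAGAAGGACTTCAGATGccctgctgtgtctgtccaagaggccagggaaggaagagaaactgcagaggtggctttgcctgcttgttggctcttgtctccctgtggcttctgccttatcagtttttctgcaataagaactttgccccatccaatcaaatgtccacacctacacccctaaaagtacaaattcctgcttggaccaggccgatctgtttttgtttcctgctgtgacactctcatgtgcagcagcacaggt
Ces2e: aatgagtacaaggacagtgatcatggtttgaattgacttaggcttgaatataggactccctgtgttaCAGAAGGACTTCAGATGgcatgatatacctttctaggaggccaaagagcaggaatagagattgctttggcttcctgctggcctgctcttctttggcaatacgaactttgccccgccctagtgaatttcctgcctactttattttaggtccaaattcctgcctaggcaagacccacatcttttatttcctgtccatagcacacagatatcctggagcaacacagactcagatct

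Letters of 4 known motifs are given for both strands of the 7 windows. The nuclear receptor core AGGTCA was found in 1 window, Ces2a (positions -226 to -221), against 16.3% of all 32851 windows of the same length in mouse. TATAAA was found in Ces1g alone (positions -26 to -21, on the opposite strand), against 13.6% of all windows. The core of the antioxidant response element (TGACNNNGC, 12.4% of all windows) and that of the C/EBP-ATF response element (TGATGNAA, 3.97%) were found in none of the 7. The reverse complement of AGGTCA begins with the letters TGAC, as TGACNNNGC does, and the other motifs have no such overlap.

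The libraries held 11785740 to 57986121 counts on genes (median, 15252745), and the 10 members together took 0.369% to 0.603% of them. Pairs of livers of a group differed by more than counting noise (chi-square per gene 9.60 to 64.2). The largest value was that of av14 and av15 (Cse-/- no-Trp). Among the Cse-/- no-Cys livers, av08 differed from the others by 43.3 to 48.9, and those differed from each other by 9.60 to 16.3. Cth, the gene of cystathionine γ-lyase, was at 88.4 to 332 CPM in the 9 Cse+/- livers and at 6.37 to 14.4 CPM in the 11 Cse-/- livers, as labelled. CPM here is the count scaled to library size with TMM factors. The 10 hepatocyte markers were detected in every group, with a summed level of 107219 to 133568 CPM in Cse+/- no-Cys livers and 59055 to 93258 CPM in Cse-/- no-Cys livers. Alb, the gene of albumin, was the marker with the lowest log2 fold change between them, -1.26. Adipose markers summed to at most 31.3 CPM (1 Cse+/- no-Trp liver, av17) and 13.2 CPM in av14 (Cse-/- no-Trp), and kidney markers to at most 21.6 CPM (1 control liver, av22) and 6.05 CPM in av15 (Cse-/- no-Trp). In bulk tissue, fewer hepatocytes and less of a transcript per hepatocyte cannot be told apart.

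The 10 genes differed widely in level. In Cse+/- livers on the control diet, the level per length of Ces1c was the highest at 918 ± 8.35 CPM per kb (SD, n = 2), followed by Ces3a at 648 ± 104 and Ces1d at 385 ± 14.2 CPM per kb. Then came Ces1f (134 ± 1.34), Ces2a (110 ± 3.55), Ces1g (103 ± 6.29), Ces2e (72.5 ± 1.58), Ces1e (71.1 ± 2.78) and Ces1b (40.1 ± 11.1 CPM per kb). Ces2c was the lowest at 5.51 ± 1.07 CPM per kb. The ranges of Ces2a and Ces1g overlapped, as did those of Ces2e and Ces1e, while each other gene lay above the next in both livers. Ces1c made up 36.9% ± 1.82 and Ces3a 26.0% ± 2.65 of the summed level of the 10 genes.

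That order was different in Cse-/- livers without cysteine. Ces1c (732 ± 32.9 CPM per kb, n = 4) and Ces3a (269 ± 15.04) still led and did not overlap with each other or with the next gene. Next was Ces1g at 120 ± 37.2 CPM per kb, and Ces1d (95.9 ± 61.6), Ces1b (87.0 ± 11.2) and Ces1f (84.8 ± 13.6) followed with overlapping ranges. Ces1b thereby lay above Ces2a (57.6 ± 10.9), Ces2e (28.3 ± 10.7) and Ces1e (27.97 ± 11.5 CPM per kb), all of which lay above it in control livers. The summed level of the 10 genes was 1389 to 1714 CPM per kb in these livers and 1769 to 2598 CPM per kb in Cse+/- no-Cys livers, without overlap.

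**Figure D1:**
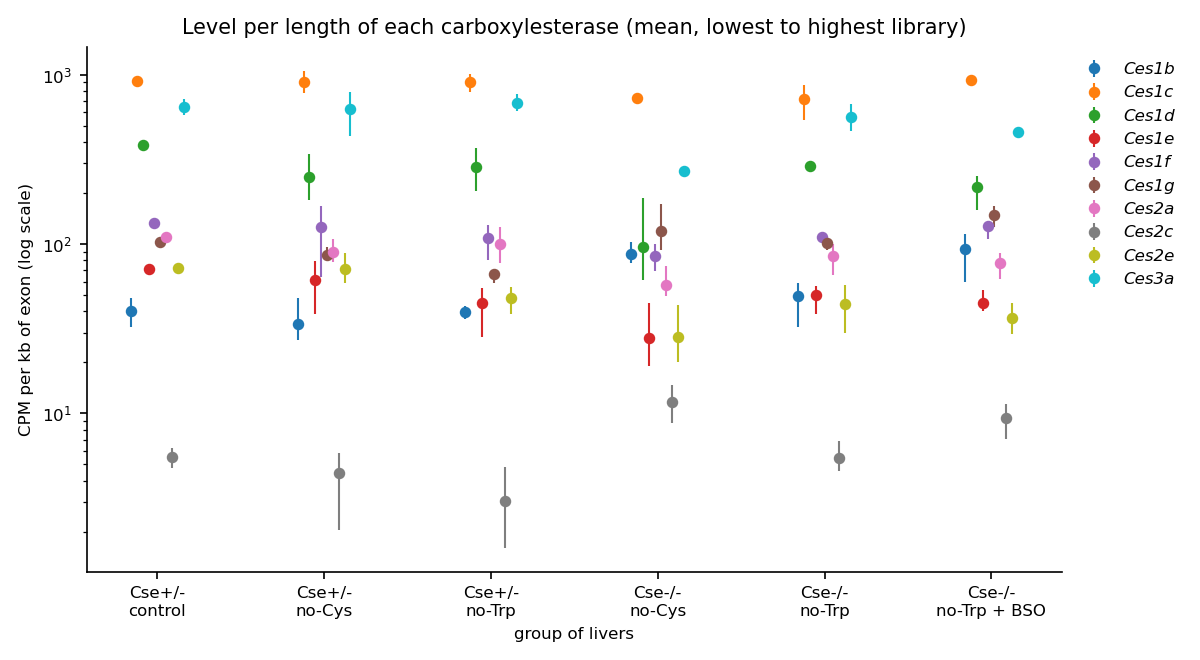
Level per length of the 10 carboxylesterases in the 6 groups. The y axis is CPM per kb of exon on a log scale, points are group means and lines run from the lowest to the highest library. Ces1c and Ces3a led in every group, Ces2c was the lowest in every group, and Ces1b took the ninth place in Cse+/- control livers and the fifth in Cse-/- no-Cys livers.

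The comparison of Cse-/- with Cse+/- livers on the no-Cys diet asks how the genotypes differ when food holds no cysteine. Of the 10 members, 9 changed, 6 of them lower and 3 higher (edgeR quasi-likelihood test, adjusted p under 0.05 over 14759 genes). The same test called 23.8% of all genes, 12.2% lower and 11.6% higher. The median log2 fold change of the 10 members was -0.61, beside -0.01 over all genes tested. The lower genes were Ces1d, Ces1e, Ces1f, Ces2a, Ces2e and Ces3a, and the higher ones Ces1b, Ces1g and Ces2c. In this comparison 5 of 10 hepatocyte markers (Alb, Apoa1, Apoa2, Ttr and Serpina1a) were called lower and 1, Cps1, higher (0.58, adjusted p = 0.0457), with the other 4 not called. Of 5 bile duct markers 2 were called lower, of 6 stellate cell markers 2 (Lrat and Col3a1) and of 5 blood markers all 5, while 1 of 6 endothelial markers, Lyve1, was higher (1.15, adjusted p = 2.20e-04), and the part of these markers in the result was not tested. The range of the hepatocyte sum is given above, bile duct markers summed to 16.4 to 28.6 against 45.9 to 57.9 CPM, and blood markers to 69.1 to 114 against 201 to 406 CPM.

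**Figure D2:**
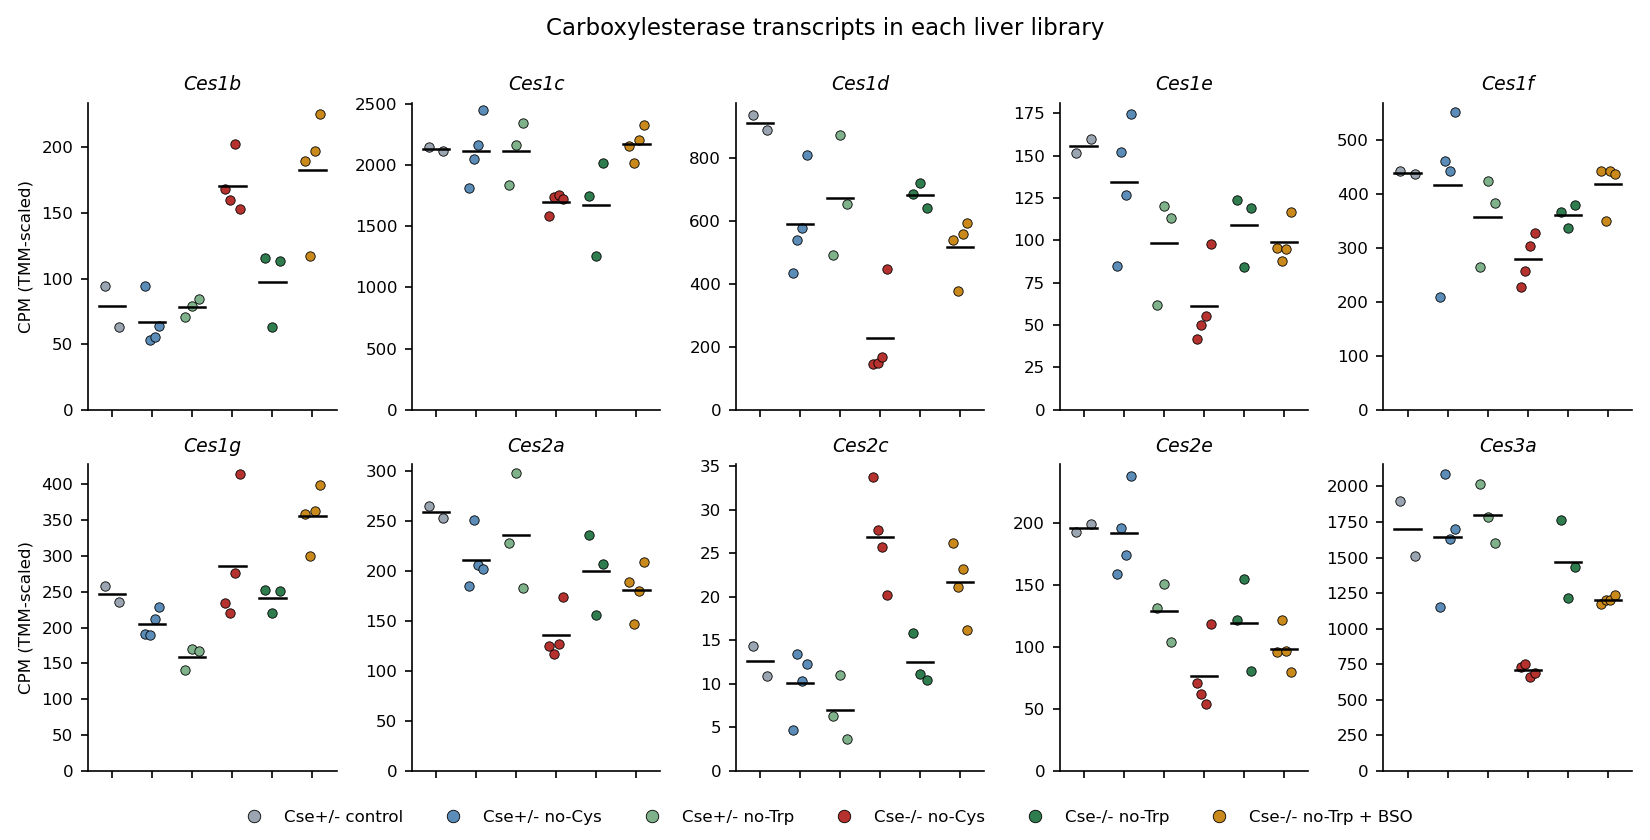
CPM (TMM-scaled) of each carboxylesterase in the 20 liver libraries. Each point is 1 liver, bars are group means and each panel has its own y axis from 0. In the Cse-/- no-Cys livers Ces3a sat at 662 to 750 CPM, below every other library, and Ces1d in 3 of the 4 livers at 146 to 168 CPM, below every other library, with the other liver at 446 CPM.

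Among the Ces1 genes of lipid hydrolysis, Ces1d encodes triacylglycerol hydrolase, an enzyme that mobilizes stored triacylglycerol for VLDL. Ces1d stood at 433, 538, 576 and 808 CPM in the Cse+/- no-Cys livers and at 146, 149, 168 and 446 CPM in the Cse-/- no-Cys livers. The groups overlapped through 1 Cse-/- liver, av08. Ces1d was 2.59-fold lower (log2 fold change -1.37 ± 0.29 (SE), adjusted p = 0.00212). Without av08 the log2 fold change was -1.93.

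Ces1g also encodes a hydrolase of triacylglycerol in liver, and it moved the other way. Its levels were 191, 190, 211 and 229 CPM in the Cse+/- no-Cys livers and 234, 220, 275 and 414 CPM in the Cse-/- no-Cys livers. The groups overlapped through 1 liver of each, and the highest value was again that of av08. Ces1g was 1.39-fold higher (log2 fold change 0.48 ± 0.15, adjusted p = 0.0280), and the call was lost without av01 (adjusted p = 0.0632), av02 (adjusted p = 0.0767) or av08 (0.24, adjusted p = 0.123). Ces1g and Ces1d have coding sequences that are 81.6% identical. Per 100 of Ces1d, the level per length of Ces1g was 28.2 to 43.8 in Cse+/- no-Cys livers and 92.2 to 163 in Cse-/- no-Cys livers, without overlap, a ratio that was chosen after the values were seen.

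Ces1f, which lies between Ces1e and Ces1g, was at 209, 461, 442 and 552 CPM in the Cse+/- no-Cys livers. It was at 228, 257, 303 and 327 CPM in the Cse-/- no-Cys livers, and the groups overlapped through the lowest Cse+/- liver, av01. Ces1f was 1.49-fold lower (-0.58 ± 0.21, adjusted p = 0.0472). This call was lost in 6 of the 8 fits that left out 1 liver.

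Ces1e encodes egasyn, which holds β-glucuronidase in the endoplasmic reticulum. It was at 84.7, 152, 127 and 175 CPM in the Cse+/- no-Cys livers and at 41.8, 50.01, 55.05 and 97.98 CPM in the Cse-/- no-Cys livers. The groups overlapped only through av08, and Ces1e was 2.20-fold lower (-1.14 ± 0.25, adjusted p = 0.00279). Gusb, the gene of β-glucuronidase itself, was at 36.0 ± 2.30 and 33.6 ± 3.57 CPM (SD, n = 4 each), with a log2 fold change of -0.10 and an adjusted p of 0.530.

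The plasma enzyme Ces1c and its neighbour Ces1b gave different results. Ces1c was at 1809, 2047, 2164 and 2449 CPM in the Cse+/- no-Cys livers and at 1588, 1740, 1753 and 1722 CPM in the Cse-/- no-Cys livers. The groups did not overlap, but the difference of -0.32 ± 0.12 on the log2 scale (95% interval, -0.56 to -0.07) did not pass the test over all genes (adjusted p = 0.0710). It passed without av01 (-0.38, adjusted p = 0.0391).

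Ces1b was at 94.2, 53.1, 55.1 and 63.8 CPM in the Cse+/- no-Cys livers and at 168, 160, 202 and 153 CPM in the Cse-/- no-Cys livers. Every Cse-/- liver was above every Cse+/- liver, and Ces1b was 2.57-fold higher (1.36 ± 0.22, adjusted p = 2.09e-04). Per 100 of Ces1c, the level per length of Ces1b was 3.01 to 6.16 in the Cse+/- no-Cys livers and 10.5 to 13.6 in the Cse-/- no-Cys livers, without overlap. Of the 61-base words in the transcripts of Ces1b, 6.78% also occur in Ces1c, so that a small part of the reads of this pair could be placed in either gene.

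The Ces2 genes, whose enzymes hydrolyse acylglycerols and many ester prodrugs, split in the same way. Ces2a was at 185, 251.03, 207 and 203 CPM in the Cse+/- no-Cys livers and at 125, 117, 127 and 174 CPM in the Cse-/- no-Cys livers. It was 1.56-fold lower (-0.64 ± 0.16, adjusted p = 0.00723), without overlap. Of its 61-base words 13.7% occur in Gm7208, whose level was not analysed here. Ces2e was at 159, 195, 174 and 238 CPM in the former and at 71.1, 62.1, 54.4 and 118 CPM in the latter. It was 2.505-fold lower (-1.32 ± 0.22, adjusted p = 3.22e-04), also without overlap.

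Ces2c, the least abundant member, was at 4.69, 13.4, 10.3 and 12.2 CPM in the Cse+/- no-Cys livers and at 33.8, 27.7, 25.8 and 20.2 CPM in the Cse-/- no-Cys livers. All Cse-/- livers were above all Cse+/- livers, and Ces2c was 2.62-fold higher (1.39 ± 0.29, adjusted p = 0.00189). Of its 61-base words 29.6% occur in another gene, chiefly the pseudogene Ces2d-ps (27.4%), which reached at most 2.81 CPM in any library, and Gm8798 (13.6%), whose level was not analysed here. Per 100 of Ces2e, the level per length of Ces2c was 3.47 to 8.06 in the Cse+/- no-Cys livers and 20.1 to 55.8 in the Cse-/- no-Cys livers, again without overlap. Both ratios were chosen after the values were seen and were not tested.

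Ces3a, an esterase long known from male mouse liver, was at 1149, 2085, 1631 and 1699 CPM in the Cse+/- no-Cys livers. It was at 729, 750, 662 and 689 CPM in the Cse-/- no-Cys livers, a narrow range below all others. Ces3a was 2.32-fold lower (-1.21 ± 0.15, adjusted p = 1.17e-05), the smallest adjusted p among the members. Its coding sequence is 95.3% identical to that of Ces3b, which is no member here, and 20.8% of its 61-base words occur in another gene. Ces3b was lower as well (-1.49, adjusted p = 4.27e-04), so that the direction is the same on either side of the shared reads.

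The counts of the members were also summed within each subfamily. The sums leave out the copies that are no members, among them those that share most words with Ces2a and Ces2c. The Ces2 sum was 1.73-fold lower (-0.79 ± 0.14, adjusted p = 5.30e-04) and the Ces1 sum 1.29-fold lower (-0.37 ± 0.13, adjusted p = 0.0478). Ces1c supplied most of the Ces1 counts, and the call on the Ces1 sum was lost in 6 of the 8 fits that left out 1 liver, with log2 fold changes from -0.47 to -0.27. The 3 genes that were higher do not show in the sums.

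**Figure D3:**
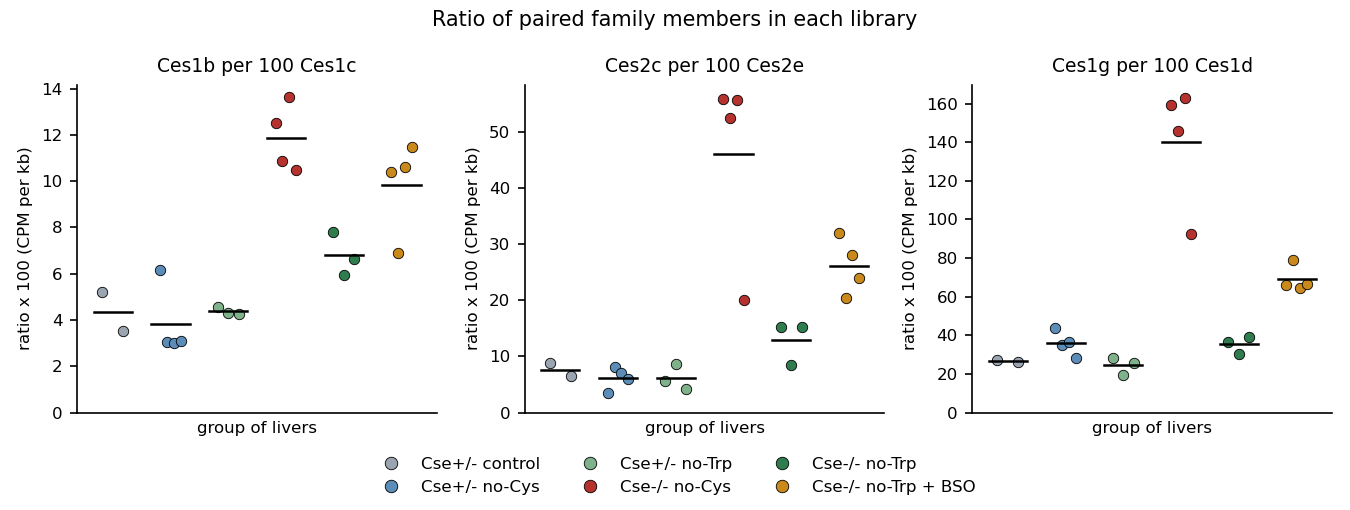
Ratio of the levels per length (CPM per kb) of 3 pairs of family members in each of the 20 libraries, times 100. Each point is 1 liver and bars are group means. In the Cse-/- no-Cys livers Ces1b reached 10.5 to 13.6 per 100 of Ces1c, Ces2c 20.1 to 55.8 per 100 of Ces2e and Ces1g 92.2 to 163 per 100 of Ces1d, with av08 the lowest of the 4 for each pair.

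Higher and lower genes were found in both clusters, but called genes of opposite direction lay directly side by side only at Ces1f and Ces1g. Along the Ces1 cluster the higher genes, Ces1b and Ces1g, stood on either side of Ces1c, Ces1d, Ces1e and Ces1f. In the other cluster Ces2c lay between Ces2a and Ces2e, both lower, but directly beside it were Ces2b, not tested, and Ces2d-ps, not called. Of the other 10 carboxylesterase genes 5 had enough counts for the test, and 2 changed, both lower. These were Ces3b and Ces4a, whose log2 fold change was -2.36 (adjusted p = 0.0101) at 0.0621 to 2.70 CPM over all livers. Ces4a was as low between genotypes on the no-Trp diet (-2.34, adjusted p = 0.0415), with an interaction of -0.02. Ces2g was at 39.98 to 84.5 CPM and did not pass the test (0.19, adjusted p = 0.272), although it was called higher between genotypes on the no-Trp diet (0.63, adjusted p = 0.0180). Not called on the no-Cys diet were also Ces1a and Ces2d-ps, both under 3 CPM. Ces1h, Ces2b, Ces2f, Ces2h and Ces5a were too low to be tested.

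**Figure D4:**
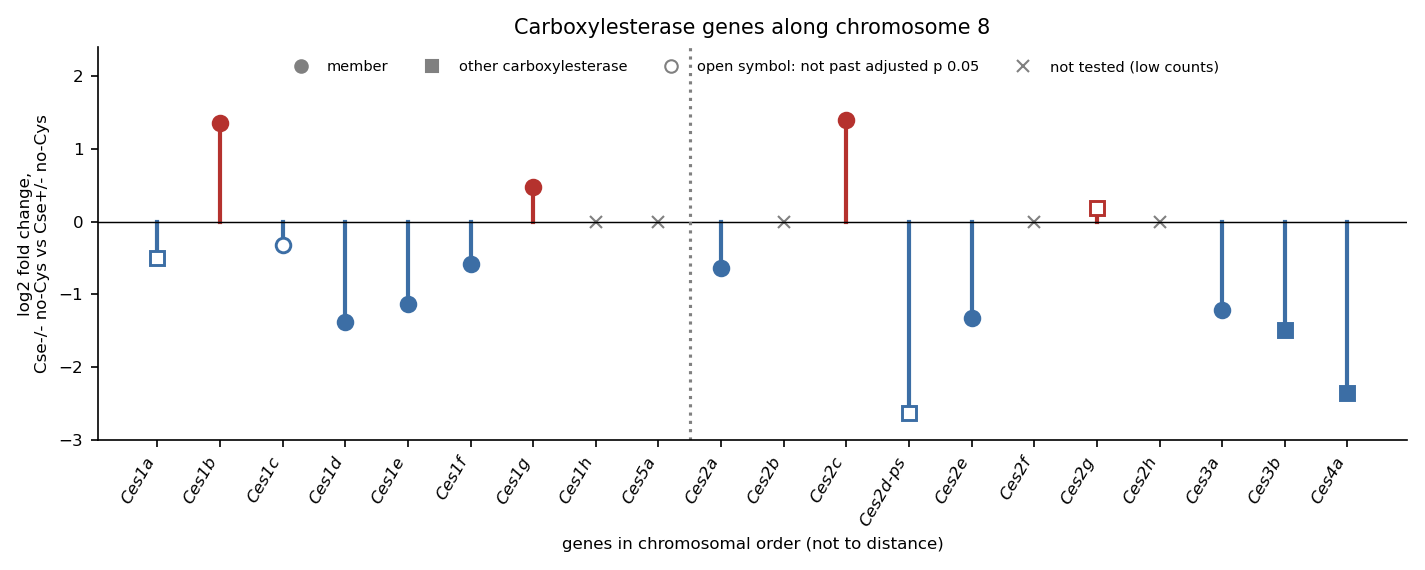
Log2 fold change (y axis) of the 20 carboxylesterase genes between Cse-/- and Cse+/- livers on the no-Cys diet, in the order of the genes on chromosome 8 (x axis, not to distance). Circles are members, squares other family genes, filled symbols passed the test, crosses were not tested and the dotted line separates both clusters. Ces1b, Ces1g and Ces2c are the 3 filled symbols above 0, each with lower genes in the same cluster.

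The comparison of genotypes on the no-Trp diet shows what the genotype does when another amino acid is lacking. By edgeR none of the 10 members was called, while 2.64% of all genes were (1.4% higher, 1.24% lower). At an unadjusted p under 0.05 there were 3 members, beside 18.4% of all genes. DESeq2 called 1, Ces1g (0.60, adjusted p = 0.0232), beside 720 of the 14624 genes that it gave an adjusted p. Ces1g was at 141, 170 and 167 CPM in the Cse+/- livers and at 252, 220 and 251.47 CPM in the Cse-/- livers, without overlap. Its edgeR log2 fold change was 0.60 ± 0.17 (adjusted p = 0.0721). Ces1d was at 490, 872 and 652 against 685, 721 and 640 CPM, a difference of 0.02 with a 95% interval of -0.63 to 0.67. Ces3a was at 2017, 1783 and 1599 against 1766, 1217 and 1432 CPM, a difference of -0.29 with an interval of -0.61 to 0.03. Ces2e differed by -0.12 (interval, -0.61 to 0.38) and Ces1b by 0.32 (interval, -0.16 to 0.80). Besides Ces1g, the members with an unadjusted p under 0.05 were Ces2c and Ces1c. Ces2c differed by 0.79 (interval, 0.14 to 1.44, edgeR adjusted p = 0.209) and Ces1c by -0.34 (interval, -0.62 to -0.06, adjusted p = 0.212).

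Whether the genotype difference itself differed between the diets was tested with the interaction term. It was called for 2 of the 10 members, both lower on the no-Cys diet, against 4.36% of all genes (2.69% lower, 1.67% higher). These were Ces3a (-0.92 ± 0.22, adjusted p = 0.0210) and Ces2e (-1.21 ± 0.33, adjusted p = 0.0449). Ces1d (-1.40 ± 0.44, adjusted p = 0.0751), Ces1e (-1.28 ± 0.38, adjusted p = 0.0585) and Ces1b (1.04 ± 0.33, adjusted p = 0.0740) had terms of similar size that did not pass. Without av08 the terms of Ces1d (-1.95, adjusted p = 4.21e-04) and Ces1e (-1.61, adjusted p = 0.00480) passed. The call on Ces3a was lost when av07, av14 or av20 was left out, and that on Ces2e in 10 of the 14 fits that left out 1 liver. Both were lost when only the groups compared were fitted (adjusted p = 0.0620 for Ces3a and 0.0918 for Ces2e). The term of Ces1b passed without av01 (adjusted p = 0.0228) and by DESeq2 (adjusted p = 0.0251), and that of Ces1f without av01 (-0.81, adjusted p = 0.0333). That of Ces1e also passed without av01 (-1.45, adjusted p = 0.0233), without av15 (adjusted p = 0.0482) and by DESeq2 (adjusted p = 0.0133). With no filter the terms of Ces1b, Ces1d and Ces1e passed (adjusted p = 0.0103, 0.00678 and 0.00453). None of these 3 passed with RLE factors, a mean CPM filter or only the groups compared. The term was -0.12 for Ces1g (95% interval, -0.57 to 0.33) and 0.02 for Ces1c (interval, -0.35 to 0.39). For Ces2c it was 0.60 (interval, -0.26 to 1.46, adjusted p = 0.485). Of the markers, 2 of 10 hepatocyte and 1 of 5 blood markers had a lower and 1 of 6 endothelial markers a higher called term, and their part was not tested.

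Within the Cse-/- genotype, the no-Cys diet was compared with the no-Trp diet. These comparisons share the Cse-/- no-Cys livers with the one above and are not independent of it. Of the 10 members 5 changed, 3 lower and 2 higher, against 10.4% of all genes (5.35% lower, 5.05% higher). The median of the members was -0.47, beside -0.01 over all genes. In the same comparison 5 of 10 hepatocyte markers, 3 of 5 blood markers and 1 of 5 bile duct markers were called lower and none higher, and their part was not tested. Ces1d was 3.002-fold lower than in the Cse-/- no-Trp livers (-1.59 ± 0.31, adjusted p = 0.00376), Ces3a 2.08-fold lower (-1.06 ± 0.15, adjusted p = 4.03e-04) and Ces2a 1.47-fold lower (-0.56 ± 0.17, adjusted p = 0.0446). Ces2c was 2.15-fold higher (1.10 ± 0.31, adjusted p = 0.0284) and Ces1b 1.75-fold higher (0.81 ± 0.23, adjusted p = 0.0328).

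The values behind these calls differ in how far the groups stood apart. Ces3a at 662 to 750 CPM lay below 1217 to 1766 CPM in the no-Trp livers, and Ces1d at 146 to 446 CPM below 640 to 721 CPM. Ces1b at 153 to 202 CPM lay above 63.2 to 115 CPM, and Ces2c at 20.2 to 33.8 CPM above 10.4 to 15.8 CPM. Ces2a overlapped (117 to 174 against 156 to 236 CPM). Only Ces1d and Ces3a were called in every fit that left out 1 liver. Ces1e (-0.83 ± 0.27) had an adjusted p of 0.050004, just over the threshold, and Ces2e (-0.64 ± 0.23) one of 0.0864. Both passed without av08 (-1.16 and -0.93, adjusted p = 0.00401 and 0.00635). Ces1e also passed with RLE factors (adjusted p = 0.0491), no filter (0.00567), a mean CPM filter (0.0461) and DESeq2 (0.0179), and Ces2e with no filter (0.0230) and DESeq2 (0.0499). When only the groups compared were fitted, the calls on Ces1b (0.81, adjusted p = 0.0574) and Ces2a (-0.56, adjusted p = 0.0943) were lost, and Ces1e and Ces2e did not pass (adjusted p = 0.0992 and 0.199). Ces1c did not differ past the test (0.02, 95% interval -0.24 to 0.29), nor did Ces1f (-0.37, interval -0.81 to 0.06) or Ces1g (0.25, interval -0.08 to 0.57).

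**Figure D5:**
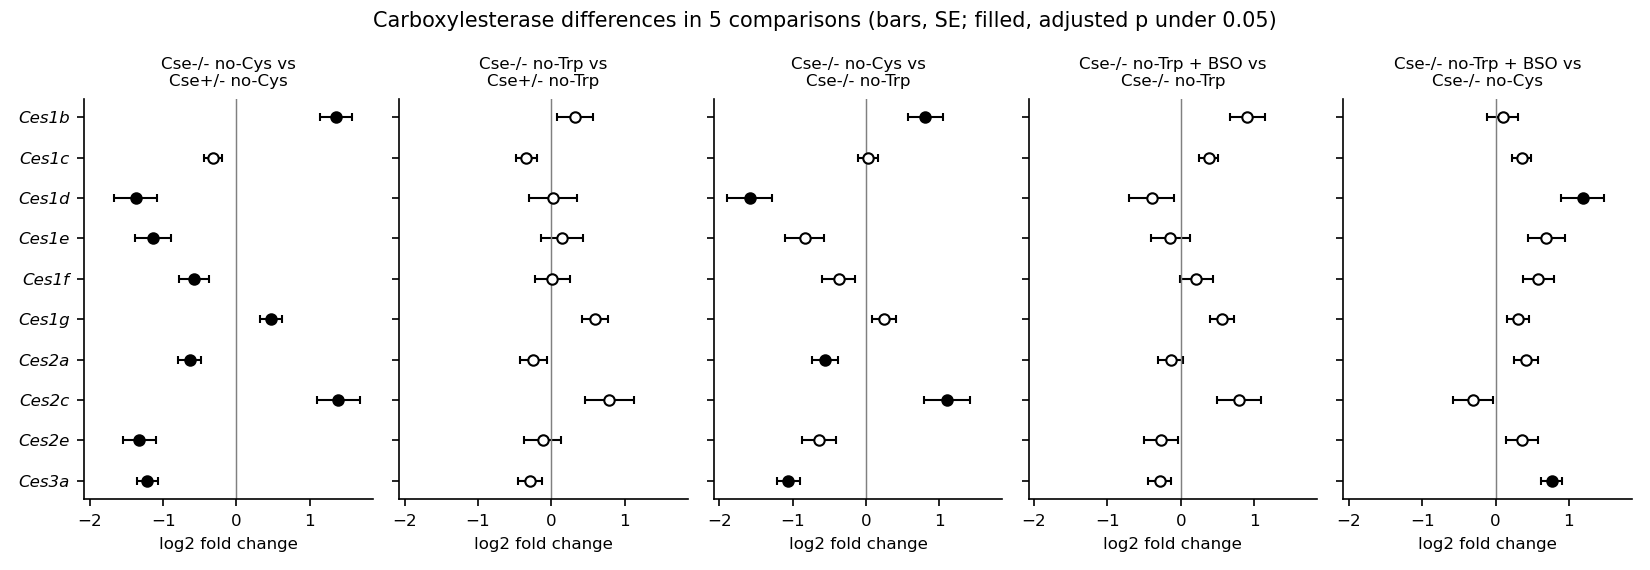
Log2 fold change (x axis) of the 10 carboxylesterases in 5 comparisons, with SE. Filled points passed an adjusted p under 0.05. Filled are 9 of 10 points for the genotypes on the no-Cys diet, 5 for no-Cys against no-Trp in Cse-/- livers and 2, Ces1d and Ces3a, for BSO against no-Cys, with none in the other panels.

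BSO lowers glutathione on a diet that holds cysteine. In Cse-/- livers on the no-Trp diet, adding BSO gave no called member by edgeR, while 0.793% of all genes were called (0.488% higher, 0.305% lower). At an unadjusted p under 0.05 there were 4 members, beside 13% of all genes. DESeq2 called 2, Ces1b (0.90, adjusted p = 0.00818) and Ces1g (0.55, adjusted p = 0.0383), beside 352 of the 12572 genes that it gave an adjusted p. In values, Ces1b was at 190, 118, 198 and 225 CPM with BSO and at 115, 63.2 and 113 CPM without it. The lowest BSO liver (117.56 CPM) lay just above the highest no-Trp liver (115.41 CPM), and the edgeR difference was 0.91 ± 0.23 (adjusted p = 0.0741). Without av10 it passed (1.06, adjusted p = 0.0226). Ces1g was at 358, 300, 362 and 399 CPM with BSO and at 252, 220 and 251.47 CPM without (0.56 ± 0.16, adjusted p = 0.120), and Ces2c at 26.2, 21.1, 23.2 and 16.2 CPM with BSO and at 15.8, 11.2 and 10.4 CPM without (0.79 ± 0.31, adjusted p = 0.245). Of the genes that were lower in Cse-/- no-Cys livers, Ces1d did not overlap between these groups (376 to 594 against 640 to 721 CPM), with a difference of -0.40 (95% interval, -1.0014 to 0.20), and Ces3a differed by -0.29 (interval, -0.59 to 0.01).

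Set against the Cse-/- no-Cys livers, the BSO livers had 2 members called, both higher, against 2.75% of all genes (1.42% higher, 1.33% lower). Here 4 of 10 hepatocyte and 2 of 5 bile duct markers were called higher and none lower, and their part was not tested. Ces3a was at 1176, 1203, 1201 and 1237 CPM with BSO, all above the 662 to 750 CPM of the no-Cys livers, and 1.70-fold higher (0.77 ± 0.14, adjusted p = 0.0112). Ces1d was 2.28-fold higher (1.19 ± 0.29, adjusted p = 0.0345), at 540, 376, 559 and 594 CPM, but overlapped with av08. The call on Ces1d was lost when any of 6 livers other than av08 and av10 was left out and when only the groups compared were fitted (1.19, adjusted p = 0.0629), and the difference was larger without av08 (1.74). That fit of the groups compared called Ces1c (0.35, adjusted p = 0.0455) and Ces1f (0.58, adjusted p = 0.0283). Ces1b (0.10, 95% interval -0.32 to 0.51) and Ces2c (-0.31, interval -0.85 to 0.23) did not differ past the test. Without av08, 6 members were called higher in the BSO livers, and 6.97% of all genes were called in that fit (3.83% higher).

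In Cse+/- mice, neither diet gave a called member against the control diet, which had 2 livers. On the no-Cys diet edgeR and DESeq2 each called 0 of 10, while edgeR called 2.18% of all genes (0.989% higher, 1.19% lower), and 0 members but 16.6% of all genes had an unadjusted edgeR p below 0.05. On the no-Trp diet both tools again called 0, while edgeR called 0.0474% of all genes (0.00678% higher, 0.0407% lower), and 4 members and 9.29% of all genes had an unadjusted edgeR p below 0.05. Ces1d was at 935 and 888 CPM on the control diet, above all livers on the no-Cys diet (433 to 808 CPM, difference -0.63, 95% interval -1.30 to 0.04) and on the no-Trp diet (490 to 872 CPM, difference -0.44, interval -1.16 to 0.28). Ces1g was at 258 and 236 CPM on the control diet, above 190 to 229 CPM on the no-Cys diet and 141 to 170 CPM on the no-Trp diet (-0.63, interval -1.01 to -0.25, adjusted p = 0.285). Besides Ces1g, the members with an unadjusted p under 0.05 on the no-Trp diet were Ces1e, Ces2c and Ces2e. They differed by -0.66 (edgeR adjusted p = 0.538), -0.81 (0.526) and -0.60 (0.529). Ces1e, Ces1f and Ces2e on the no-Trp diet and Ces2a on the no-Cys diet also lay below both control livers. Ces3a differed by -0.05 on the no-Cys diet (interval, -0.40 to 0.29) and by 0.08 on the no-Trp diet (interval, -0.28 to 0.44). Ces2e averaged 129 CPM on the no-Trp diet and 191 CPM on the no-Cys diet, values that also enter its interaction term.

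Over the 20 libraries, some pairs of members varied together, some oppositely, and others showed neither. As a description over libraries that share groups, Spearman's rho of log2 CPM was 0.83 for Ces2a and Ces3a, 0.79 for Ces1e and Ces1f, 0.77 for both Ces1c with Ces1f and Ces1e with Ces2a, and 0.75 for Ces1d and Ces1e. Among the higher genes it was 0.71 for Ces1b and Ces2c and 0.69 for Ces1b and Ces1g. Ces1b and Ces2e had the lowest value, -0.84, and the close copies Ces1b and Ces1c had -0.11. Ces3a, called in 4 of the 8 comparisons and so the most often, was compared with 12570 genes outside the family. The most similar were Sult2a8, a sulfotransferase (rho 0.94), Dexi (0.94) and Dio1, the deiodinase that activates thyroid hormone (0.93). Dio1 was at 163 CPM on average in Cse+/- no-Cys livers and at 26.1 CPM in Cse-/- no-Cys livers.

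Other genes of related pathways were counted for the comparison of genotypes on the no-Cys diet, in which 12.2% of all genes were called lower and 11.6% higher. Of 17 neutral lipid hydrolases and their regulators tested, 5 were lower and 3 higher, with a median of -0.08. The lowest was Pnpla3, a lipid droplet lipase homologue, at 1.51 ± 0.25 and 0.36 ± 0.10 CPM (-2.08, adjusted p = 0.00294), and the highest Hilpda, an inhibitor of lipolysis (1.00, adjusted p = 0.0209). Of 13 genes of VLDL assembly, 4 were lower and 2 higher, with a median of 0.01. The lowest was Apoa4 (-0.90, adjusted p = 0.127), which did not pass, and the highest Sec16b, of endoplasmic reticulum export (0.50, adjusted p = 0.0182). Of 11 other esterases and partners in the endoplasmic reticulum, 2 were lower and 1 higher, a share near that of all genes.

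Among 14 nuclear receptors and other factors of xenobiotic and lipid control, 2 were lower and none higher, with a median of 0.06. These were Srebf1, which drives fatty acid synthesis (-1.69, adjusted p = 2.25e-04), and Nfe2l2, the gene of NRF2 (-0.41, adjusted p = 0.0158). Of 12 NRF2 target genes 10 were higher and none lower, with a median of 1.71, from Gclm (0.07) to Gsta1, a glutathione transferase, at 0.70 ± 0.16 and 6.13 ± 3.68 CPM (3.11, adjusted p = 6.02e-05). Each of these medians stands beside -0.01 over all genes tested.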

How the data were processed

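Liver mRNA of 20 mice was analysed. The authors aligned reads with HISAT2 2.1.0 to GRCm38 and counted them on genes with HTSeq 0.11.0, per the labels, and deposited raw counts without normalization. Columns were assigned to groups, not to numbered replicates, by the list of mice, and 1 column without a condition was not used. Strandedness and the annotation release are not given in the sources used here. Symbols and exon lengths come from GENCODE vM21 (GRCm38).

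edgeR 4.0.16 in R 4.3.3 was run on counts kept by filterByExpr (minimum 10, total 15; 14759 genes, all members included), with TMM factors, a mean per group and quasi-likelihood tests, adjusted by Benjamini-Hochberg over all genes (threshold 0.05, two-sided). DESeq2 1.42.0, RLE factors, other filters, only the groups compared and leave-one-out fits were the alternatives. Named were all members, called family genes, the lowest and highest gene of each pathway list, and the 3 genes most like Ces3a. An item that this rule or the motif search gave is not reported here. Members and lists were chosen with earlier results of these data known. CPM per kb divides by union exon length, and shared words are 61 bases long. How many of all genes lacked overlap between groups was not counted for any comparison. The study states that compared mice were littermates where possible, but the litter of each library is not given and was not modelled. Nothing states that replicates share days. The p-values set a difference against the spread between mice within groups, estimated over all 20 libraries.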

Additional observations from a re-analysis of the deposited data

Results flagged for a closer look

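Ces1d in 1 Cse-/- no-Cys liver (av08) was at 445.65 CPM, far from the other 3 livers of its group, at 146.02 to 167.93 CPM. In the same liver the hepatocyte marker sum was 93258 CPM against 59055 to 63896 CPM in the other 3, and Alb was at 49494 CPM against 25507 to 28858 CPM. Blood markers summed to 114 CPM there against 69.1 to 76.9 CPM, and bile duct markers to 28.6 against 16.4 to 22.2 CPM. Their part in the Ces1d value was not tested. Ces1e, Ces1f, Ces1g, Ces2a and Ces2e also had their highest value of that group in av08, Ces1b and Ces2c their lowest, while Ces3a in av08 lay within the range of the others.

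Ces1f in 1 Cse-/- liver on the no-Trp diet with BSO (av10) was at 350.34 CPM, below the other 3 at 436.94 to 442.33 CPM. Both values stood apart by Dixon's test in a search of 30 sets, 10 genes in the same 3 groups of 4 livers, in which chance gives about 1 in 20.

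The genotype difference differed between the no-Cys and the no-Trp diet for Ces2e (-1.2092 on the log2 scale) and for Ces3a (-0.92386), by the interaction test of edgeR. Neither passed when only the groups compared were fitted.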

How the results depend on the processing

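No paired analysis was possible because the columns carry neither replicate numbers nor litters. On the no-Cys diet the 9 calls between genotypes stayed at 9 by RLE factors, and leaving out 1 liver gave 7 to 9. The calls on Ces1f (adjusted p = 0.114) and Ces1g (adjusted p = 0.0847) were lost when only the groups compared were fitted. No called member changed direction under any alternative run. With no filter on low counts, 1 member was called between genotypes on the no-Trp diet, 2 for BSO against no-Trp, 4 for BSO against no-Cys and 5 for the interaction. DESeq2 called 1 between genotypes on the no-Trp diet, 2 for BSO against no-Trp and 4 for the interaction. Beside them it called 720 of 14624, 352 of 12572 and 1055 of 13085 genes with an adjusted p. Fitting only the groups compared gave 3 for the no-Cys against the no-Trp diet and 0 for the interaction. Leaving out 1 liver gave 2 to 7 for the no-Cys against the no-Trp diet, 0 to 1 for BSO against no-Trp, 1 to 6 for BSO against no-Cys and 0 to 5 for the interaction, where the 7 and the 6 came without av08 and the 5 without av01. The cause was not tested. The call on the Ces1 sum between genotypes on the no-Cys diet was lost with no filter (-0.36, adjusted p = 0.0623) and with only the groups compared (-0.38, adjusted p = 0.0931). Over all genes DESeq2 called more genes than edgeR in each of the 8 comparisons, and by over 1.5 times in 6 of them, with 720 against 389 between genotypes on the no-Trp diet, 352 against 117 for BSO against no-Trp, 876 against 406 for BSO against no-Cys, 613 against 322 and 60 against 7 for the no-Cys and the no-Trp diet against control in Cse+/- livers, and 1055 against 643 for the interaction. The share of all genes called moved with the settings too. Leaving out 1 liver gave 18.1% to 23.7% between genotypes on the no-Cys diet, 0.742% (without av15) to 2.87% on the no-Trp diet, 4.65% to 12.6% for no-Cys against no-Trp, 0.245% (without av09) to 1.16% for BSO against no-Trp, 0.352% to 6.97% for BSO against no-Cys, 2.37% to 7.8% for the interaction, and 0.0655% (without av22) to 2.84% and 0.0131% to 0.0612% for the no-Cys and no-Trp diets in Cse+/- livers. In that order, the shares were 11.1%, 2.08%, 5.25%, 1.05%, 2.12%, 2.95%, 1.77% and 0.259% with no filter and 22.1%, 0.581%, 3.81%, 0.521%, 4.11%, 2.63%, 1% and 0.0212% with only the groups compared.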
